A study of Caenorhabditis elegans with 2 samples.

Results

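The 10 genes described here encode the core of the basement membrane that surrounds body wall muscle and other tissues of Caenorhabditis elegans: type IV collagen (emb-9, let-2), laminin (lam-1, lam-2, epi-1, lam-3), nidogen (nid-1), perlecan (unc-52), SPARC (ost-1) and collagen XVIII (cle-1). They were chosen by symbol as 10 of the 19973 protein-coding genes of the annotation. The rule uses no measured value, but the list was drawn up with earlier results of these data known. Of these 10 genes, 6 had at least 1 UNC-120-GFP binding summit between 5000 bp upstream of the gene and its 3' end. They were both collagen IV genes, the laminin genes lam-1, lam-2 and epi-1, and ost-1. Summits were taken from the list that passed the authors' threshold on reproducibility. Under the same rule 19.7% of all protein-coding genes had a summit, and 30.5% of those with windows in the length range of the 10 genes. The strongest summit lay 3026 bp upstream of let-2 and ranked 88 among 2946. No summit of the thresholded list fell at lam-3, nid-1, unc-52 or cle-1. Among the top 2946 regions of replicate 1 alone, emb-9 had no summit either.

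A basement membrane is a thin sheet of extracellular matrix on which cells rest. Laminin trimers, each of an alpha, a beta and a gamma chain, and a meshwork of type IV collagen form its layers, and nidogen and perlecan are known to link to them. In C. elegans, body wall muscle is a main source of type IV collagen, and perlecan lies under the muscle cells where integrins attach the contractile filaments. UNC-120 is a MADS box transcription factor of the SRF type that acts in body wall muscle development.

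The binding data came from chromatin immunoprecipitation with an antibody against GFP, followed by sequencing (ChIP-seq), of whole embryos. All worms were of strain OP659, which carries the unc-119 allele tm4063 on chromosome III and the transgene wgIs659. From this transgene, UNC-120 is made as a fusion with a C-terminal GFP-FLAG tag. Mixed-stage embryos of both sexes were taken 3 h after eggs had been synchronized by bleaching, and sonication sheared the chromatin. There was 1 group with 2 libraries, which the labels number as biological replicates 1 and 2. A possible control experiment that the labels name is not analysed here. Binding was therefore that of a tagged protein from a transgene, the cells in which it occurred were not resolved, and expression of the genes was not measured.

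The deposited lists gave each region a score of peak strength from the authors' peak caller, on a scale that the labels do not state, so scores and ranks describe regions within 1 list only. The list that passed the authors' threshold on the irreproducible discovery rate (IDR) held 2951 regions, 2946 of them on nuclear chromosomes, with a median width of 444 bp and scores from 185 to 2614. It was made up of the 2946 highest-scoring nuclear regions of the list called on both replicates pooled, which held 30000 regions in all. Each replicate also had its own list of 30000 ranked regions. No read counts were given, so the depth is unknown, and the precision is shown by the ranks of a summit in replicate 1 and replicate 2.

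The sequences under 8 of the 12 member summits are shown because they include the strongest summit of each gene but lam-1, for which the summit nearer to its 5' end is given. Each spans 50 bp on either side of the summit in genome build ce11 (RefSeq sequence of the same assembly, WBcel235), read 5' to 3' on the strand of its gene. Capitals mark the E-box pattern CANNTG and the repeat GAGAGAGA or its reverse complement TCTCTCTC, which adjoin each other near the end of the lam-1 sequence. Positions are distances to the gene's outermost annotated 5' end.
let-2, 3026 bp upstream, chrX:16392316-16392416, minus strand: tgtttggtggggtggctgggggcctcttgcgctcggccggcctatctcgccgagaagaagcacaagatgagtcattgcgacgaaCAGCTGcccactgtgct
let-2, 116 bp upstream, chrX:16389406-16389506, minus strand: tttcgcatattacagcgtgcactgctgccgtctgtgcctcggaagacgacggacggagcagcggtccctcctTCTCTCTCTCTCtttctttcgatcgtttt
ost-1, 4 bp upstream, chrIV:1107342-1107442, plus strand: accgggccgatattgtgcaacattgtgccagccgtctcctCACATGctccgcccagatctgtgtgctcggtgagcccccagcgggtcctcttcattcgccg
ost-1, 805 bp downstream, chrIV:1108151-1108251, plus strand: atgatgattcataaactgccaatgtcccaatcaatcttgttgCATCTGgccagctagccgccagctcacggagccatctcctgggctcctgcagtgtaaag
lam-1, 991 bp upstream, chrIV:5172291-5172391, plus strand: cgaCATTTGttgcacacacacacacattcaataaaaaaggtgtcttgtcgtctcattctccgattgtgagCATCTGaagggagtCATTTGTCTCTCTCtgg
lam-2, 427 bp upstream, chrX:7151616-7151716, minus strand: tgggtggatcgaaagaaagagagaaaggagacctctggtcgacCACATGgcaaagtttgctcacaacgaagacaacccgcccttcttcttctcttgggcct
epi-1, 163 bp upstream, chrIV:10666610-10666710, plus strand: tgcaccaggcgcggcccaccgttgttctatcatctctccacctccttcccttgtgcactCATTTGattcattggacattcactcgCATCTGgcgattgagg
emb-9, 621 bp upstream, chrIII:9345018-9345118, minus strand: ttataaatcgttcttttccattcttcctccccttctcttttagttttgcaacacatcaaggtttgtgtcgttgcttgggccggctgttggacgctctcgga
The let-2 sequences differ in this respect. The far upstream one holds the E-box CAGCTG, while the one near the 5' end holds overlapping GA repeats and no CANNTG. At epi-1 and lam-1 the E-boxes CATCTG and CATTTG both occur, and the 2 ost-1 sequences hold 1 E-box each. The emb-9 sequence has neither pattern within 50 bp of the summit.

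The 2 collagen IV genes form the chains of the same trimer, yet they differed in their summits. The gene let-2 (WBGene00002280, chromosome X, 16380597 to 16389340, minus strand) had 4, and emb-9 (WBGene00001263, chromosome III, 9336881 to 9344447, minus strand) had 1. The strongest let-2 summit, at position 16392366 and 3026 bp upstream, had a score of 851, which placed it within the top 2.99% of nuclear IDR peaks. It ranked 80 in replicate 1, with a score of 436 in that list, and 119 in replicate 2, with a score of 409. It lay outside protein-coding genes, inside the annotated non-coding RNA genes F01G12.9 and F01G12.13, and let-2 had the nearest protein-coding 5' end.

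The second let-2 summit, at 16389456, was intergenic and 116 bp upstream of the gene. Its score was 511 and its IDR rank 432, and it ranked 451 in replicate 1 and 405 in replicate 2. The other 2 let-2 summits were close to the bottom of the IDR list. One, at 16388531, lay in intron 3, which is 374 bp long, 809 bp downstream of the gene's 5' end, where it scored 208 and the replicates ranked it 3743 and 1761. The other, at 16388197, lay in intron 4, which is 322 bp long, with a score of 187. It ranked 2252 in replicate 1, and replicate 2 listed no summit within 200 bp of it. Both intronic summits lay inside annotated non-coding RNA genes, F01G12.17 and F01G12.16. Their 2 regions overlapped, and with 1 summit kept per 400 bp let-2 had 3 summits.

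The single emb-9 summit, at 9345068, was 621 bp upstream of the gene and inside the non-coding RNA gene K04H4.9. It was the weakest of the strongest summits of the 6 genes, with a score of 209 and an IDR rank of 2498. The replicates differed here, with a rank of 3882 in replicate 1 and of 2113 in replicate 2. In replicate 1 the best region in the emb-9 window, ranked 3433, was at another place, 9346299. When the 2946 top regions of replicate 1 alone were used, emb-9 had no summit in its window. The count of genes with a summit then fell to 5 of 10, where 19.4% of all protein-coding genes had one.

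Among the laminin genes, the single beta chain gene lam-1 and the single gamma chain gene lam-2 had summits, and so did epi-1, which encodes one of the alpha chains. At lam-1 (WBGene00002247, chromosome IV, 5173332 to 5183746, plus strand) the stronger summit, at 5169581, was 3751 bp upstream and scored 414, and the replicates ranked it 791 and 754. That intergenic summit was not nearest to lam-1: the nearest 5' end was that of ptp-5.1, 3251 bp away, and the summit lay 1143 bp beyond the end of that gene. It also fell in the window of nspd-6, 3855 bp upstream of it.

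The second lam-1 summit, at 5172341, was 991 bp upstream, just inside the promoter window used below. It scored 264, and its ranks of 1806 and 1833 in the replicates were close to each other, although replicate 1 placed its summit at 5172228. At lam-2 (WBGene00016913, chromosome X, 7143846 to 7151239, minus strand) the summit at 7151666 was 427 bp upstream, inside the non-coding RNA gene C54D1.9, with a score of 293. It ranked 2067 in replicate 1 and 1056 in replicate 2.

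The epi-1 summit, at 10666660, was 163 bp upstream of that gene (WBGene00001328, chromosome IV, 10666823 to 10679291, plus strand). It scored 258 and ranked 2127 in replicate 1 and 1683 in replicate 2. Within replicate 1 the lam-2, epi-1 and emb-9 summits ranked 2067, 2127 and 3882, and within replicate 2 1056, 1683 and 2113, the same order. Set across the 2 lists, which rank regions separately, the ranges of lam-2 and epi-1 overlapped, and those of epi-1 and emb-9 narrowly.

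SPARC is a glycoprotein that binds collagen, and its gene ost-1 (WBGene00003893, chromosome IV, 1107396 to 1110872, plus strand) had 3 summits although its window, of 8477 bp, was the shortest of the 10. The strongest, at 1108201, lay in intron 2, which is 1179 bp long, and 737 bp upstream of an internal annotated 5' end of ost-1. Its score was 523, its IDR rank 406, and its ranks in the replicates 511 and 331. Next was a summit 4 bp upstream of the outermost 5' end, at 1107392, which scored 439 and ranked 1184 and 358 in the replicates, so replicate 2 ranked it far higher than replicate 1 did.

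The third ost-1 summit, at 1105201, was 2195 bp upstream of ost-1 and scored 246, with ranks of 2009 and 2132. It was nearer to another gene, C44B12.3, lying 435 bp from its 5' end and 71 bp beyond its 3' end. It was also 583 bp upstream of C44B12.9, whose window held all 3 ost-1 summits. Over all protein-coding genes, 0.961% had 3 or more summits in this window, and let-2 and ost-1 were the members that did.

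**Figure D1:**
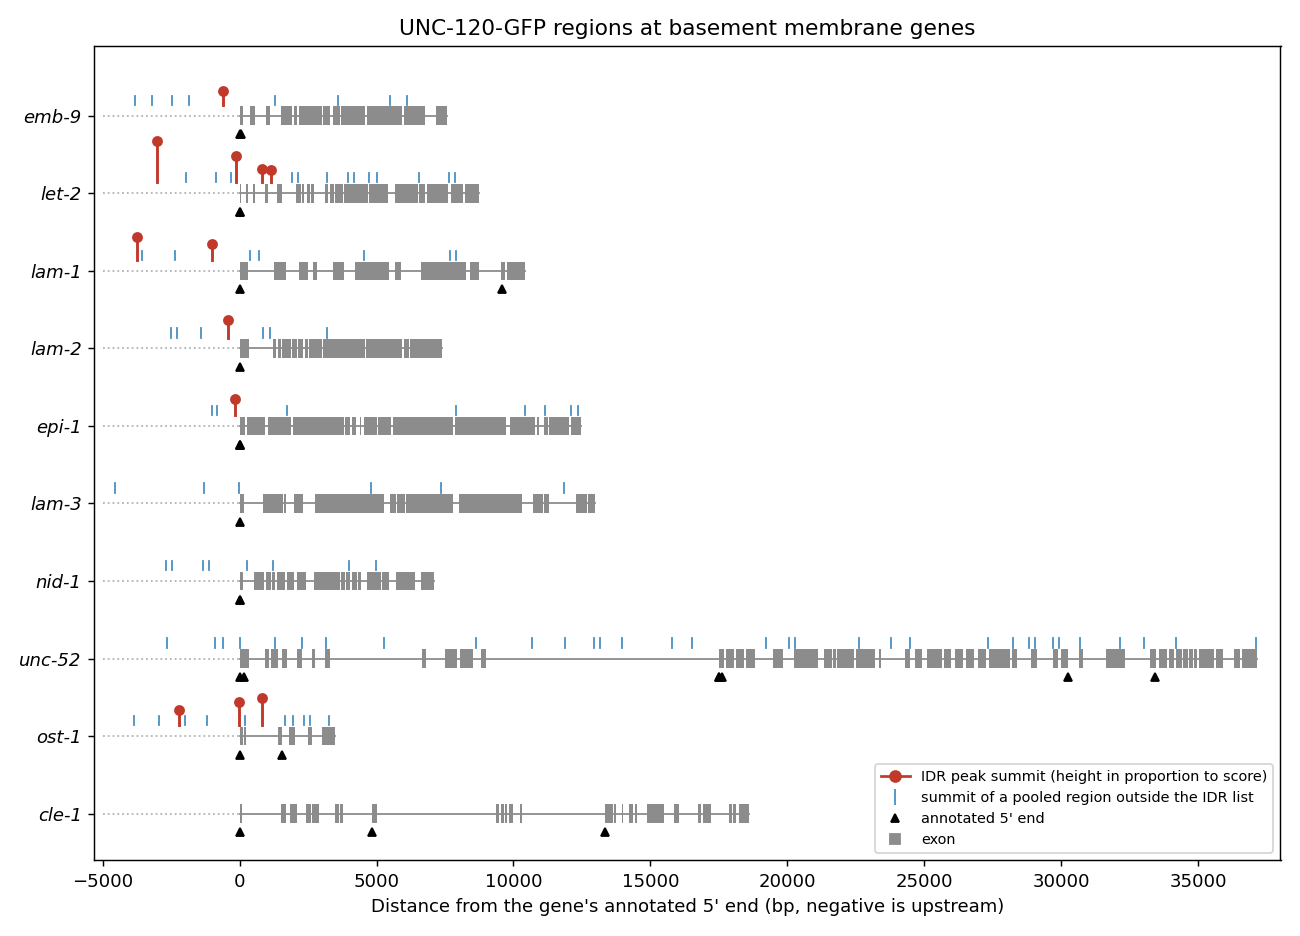
Map of the 10 genes with distance in bp from each gene's outermost 5' end on the horizontal axis. Grey boxes are exons, black triangles annotated 5' ends, red pins IDR summits, and blue ticks other summits of the pooled list. Pin height rises with score above a fixed base length, so it is not in strict proportion to score as the legend has it. The 12 red pins stand at 6 genes, with 4 at let-2, 3 at ost-1 and the tallest 3026 bp upstream of let-2, and the cle-1 row has neither pins nor ticks.

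Perlecan, nidogen, the other laminin alpha chain and collagen XVIII had no IDR summit, and the ranked lists showed how far below the threshold their regions lay. At unc-52 (WBGene00006787, chromosome II, 14647321 to 14684456, minus strand), whose window of 42136 bp was the longest and held 33 pooled regions, the strongest was at 14667954 in intron 11. It lay 1011 bp upstream of an internal annotated 5' end, one of 7 of this gene. Its pooled rank was 3452 and its score of 163 was 88.2% of the lowest IDR score, and it ranked 2980 in replicate 1 and 4900 in replicate 2. Of the 4 genes without a summit, unc-52 thus came nearest to the threshold. Among the regions of the 10 genes, those closest to it on either side were both at let-2, the intron 4 summit with a score of 187 and a region 2117 bp downstream, outside the list, with 182.

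At nid-1 (WBGene00003738, chromosome V, 12910107 to 12917221, plus strand) the strongest of 8 pooled regions was 1330 bp upstream, with a pooled rank of 6636 and a score of 102. Its ranks of 20641 in replicate 1 and 5155 in replicate 2 were far apart. At lam-3 (WBGene00002248, chromosome I, 10608466 to 10621435, plus strand) the strongest of 6 pooled regions was in intron 11, with a pooled rank of 10086 and a score of 80.4. A weaker lam-3 region lay 3 bp upstream of the 5' end, with a pooled rank of 22490. It ranked 9952 in replicate 2 and was not matched within 200 bp in replicate 1.

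The collagen XVIII gene cle-1 (WBGene00000527, chromosome I, 8705668 to 8724279, minus strand) had no region in its window of 23612 bp in the pooled list or in either replicate list. The pooled list had no summit between 8699194 and 8732043, a stretch of 32849 bp, and the stretches in replicates 1 and 2 were 29423 and 32829 bp. Of 29989 gaps between neighbouring pooled summits, 353 were at least as long. Over all protein-coding genes, 35.8% had no pooled region in the window, but among the 236 genes with a window at least as long as that of cle-1, 13 did, or 5.51%.

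**Figure D2:**
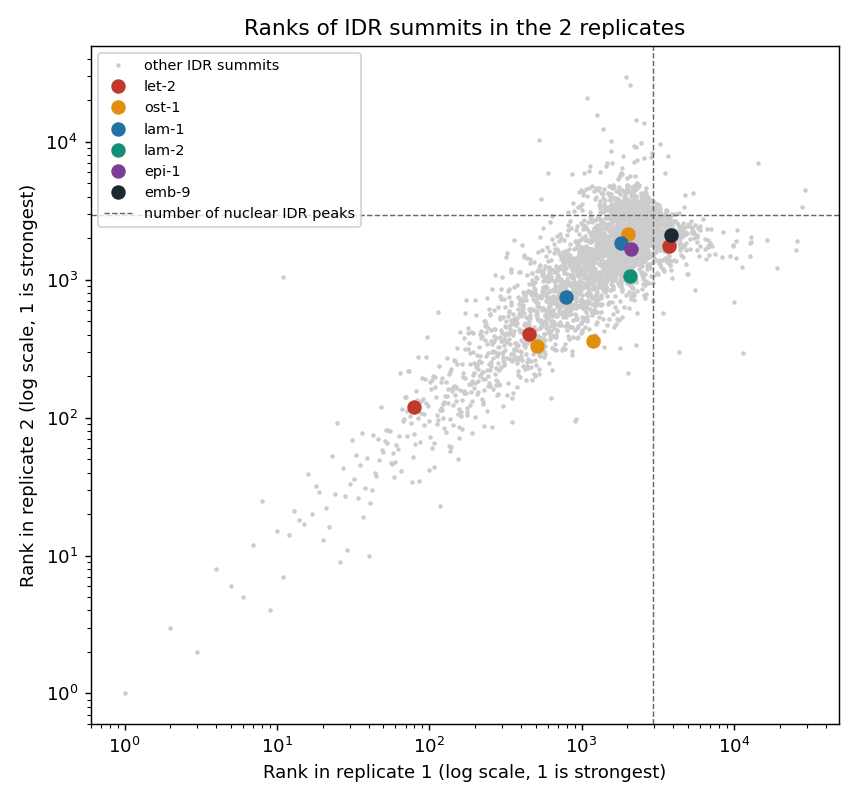
Rank of each IDR summit in replicate 1 (horizontal, log scale) and replicate 2 (vertical, log scale), for summits listed in both; 1 is strongest, grey points are all other summits and dashed lines mark 2946. The 11 member summits shown run from 80 and 119 at let-2 to 3882 and 2113 at emb-9.

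By their strongest summits the 6 genes ran in the order let-2, ost-1, lam-1, lam-2, epi-1 and emb-9. The best rank in each gene's window gave the same order in both replicates: 80, 511, 791, 2067, 2127 and 3433 in replicate 1, and 119, 331, 754, 1056, 1683 and 2113 in replicate 2. The first 3 genes were separated from each other and from the rest in both lists. For lam-1 this rested on the summit 3751 bp upstream, which was nearest to ptp-5.1 and also in the window of nspd-6. The other lam-1 summit scored 264, below the 293 of lam-2. Replicate 1 ranked that lam-1 summit above the one of lam-2 (1806 against 2067), and replicate 2 ranked it below (1833 against 1056). Of the 12 summits, 11 had a partner within 200 bp in both replicate lists, and their ranks differed by a median factor of 1.49, up to 3.31. The median factor was 1.42 over the 2920 nuclear IDR summits found in both. Ranks of 2946 or better in both replicates were held by 9 of 12 member summits (75.0%) and by 77.6% of all.

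The count of 6 of 10 genes (60.0%) stands beside 19.7% of all protein-coding genes with a summit under the same rule. The member windows were long, with a median of 14579 bp against 7027 bp over all genes. Among the 5283 genes whose windows were between 8477 and 42136 bp, the range of the members, 30.5% had a summit. Lengths inside this range were not matched to those of the members. With a narrower window, from 1000 bp upstream to 500 bp downstream of any annotated 5' end, the same 6 members had a summit, against 9.26% of all genes. With the top regions of replicate 1 alone this narrower count was 4, without emb-9 and lam-1, against 9.03% of all genes. Counted by length, members had 0.682 summits per 10 kb of window and all genes 0.306, where windows of neighbouring genes overlap. Regions of the whole pooled list were also denser at the members, at 6.31 per 10 kb against 2.93 for all genes. Because of how the genes were chosen, these shares are a description and carry no test.

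**Figure D3:**
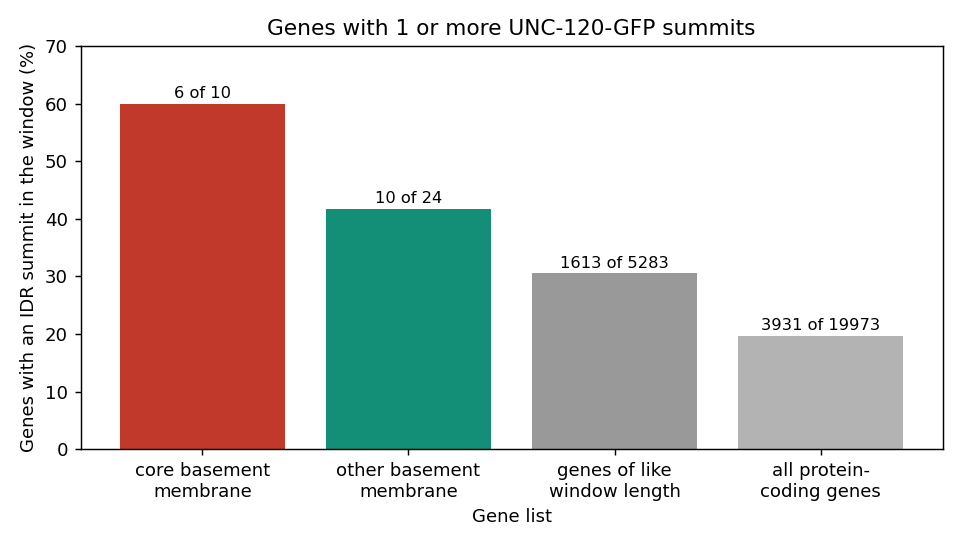
Bars, which start at 0, give the percentage of genes with at least 1 IDR summit from 5000 bp upstream to the 3' end. The 6 of 10 core basement membrane genes (60.0%) and 10 of 24 other basement membrane genes (41.7%) stand beside 30.5% and 19.7%. The 30.5% is for genes with windows in the length range of the core genes, labelled as of like length, and the 19.7% for all protein-coding genes.

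The member summits were of ordinary strength for this list. Their median score was 279, against 293 over all 2946, and 6 of the 12 were above the median of all. Their median GC content within 100 bp was 47.0%, from 38.8% to 54.7%, against 45.8% over all summits. None lay in a coding exon, 3 lay in introns and 9 (75.0%) outside protein-coding genes, where 67.3% of all summits lay. A protein-coding 5' end was within 1000 bp of 9 of 12 (75.0%), against 57.1% of all.

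Inside an annotated non-coding RNA gene lay 5 of the 12 summits (41.7%), at let-2, lam-2 and emb-9, against 12.8% of all summits. Of these 5, 3 were at let-2, so they are not independent of each other. Whether these RNAs were made was not measured.

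Short sequences were searched on both strands within 100 bp of each summit, and a match is a description, not a site. The E-box pattern CANNTG, bound by basic helix-loop-helix factors such as the muscle factor HLH-1, was present at 11 of 12 member summits (91.7%) and at 61.1% of all. The exception was the let-2 summit 116 bp upstream. Within 50 bp it was present at 9 of 12 and at 40.9% of all, and within 200 bp at 12 of 12 and at 82.3% of all. The particular E-box CAGCTG, which CANNTG includes, was at 3 of 12 (25.0%), of which 2 were at let-2 and 1 at ost-1, and at 9.40% of all. CACCTG, another form of CANNTG, was at 0 of 12 and at 6.59% of all. Within 200 bp, CAGCTG was at 6 of 12 and at 13.3% of all, and CACCTG at 2 of 12 and at 11.5% of all, so the order of the CACCTG shares turned with the window.

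The CArG box, the element that SRF-type MADS factors are known to bind, was not found within 100 bp of a member summit and was at 1.46% of all summits. With up to 1 mismatch allowed it was at 1 of 12 (8.33%), the let-2 summit 809 bp downstream, and at 16.4% of all. The MEF2-type site was at 0 of 12 and at 0.475% of all. The repeat GAGAGAGA was at 2 of 12 (16.7%), once at lam-1 and in 3 overlapping copies at let-2, and at 16.3% of all. TGATAA, a form of the element that GATA factors bind, was at 1 of 12 (8.33%), in the intron of ost-1, and at 10.6% of all. Within 200 bp TGATAA was at 3 of 12 and 24.8% of all, and the CArG box with up to 1 mismatch at 2 of 12 and 30.7%. Within 50 bp neither was at a member summit.

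Other genes of the basement membrane and its attachment to cells, 24 in all, were listed by role, and 10 of them (41.7%) had an IDR summit between 5000 bp upstream and the 3' end. The share was 19.7% over all protein-coding genes and 30.5% over genes with windows of 8477 to 42136 bp, the range of the core genes. Windows of the 24 genes ran from 7382 bp at pdi-2 to 53457 bp at dig-1, so that range was not set for them. In the narrower promoter window 3 of the 24 had a summit, namely pat-3, spon-1 and pdi-2, which is near the 9.26% of all genes.

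Among receptors, 3 of 9 had a summit. The integrin beta gene pat-3 had 3, the strongest of them 870 bp upstream, where it scored 470 and ranked 607 and 535 in the replicates. The other 2 were nearer to the 5' end of ccdc-47, at 122 and 1063 bp. The alpha chain with which it pairs in muscle, PAT-2, had a summit 2963 bp upstream of its gene, which scored 410 and ranked 514 and 1036. The syndecan gene sdn-1 had one 4429 bp upstream with a score of 396, inside 2 annotated non-coding RNA genes. The discoidin domain receptor genes ddr-1 and ddr-2, the dystroglycan gene dgn-1, the glypican gene gpn-1, the other integrin alpha gene ina-1 and the receptor phosphatase gene ptp-3 had none.

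Among other matrix genes, 5 of 8 had a summit. The strongest was in an intron of the peroxidasin gene pxn-1, with a score of 1020, an IDR rank of 39 and ranks of 33 and 54 in the replicates. It exceeded the strongest core summit, at let-2. It was lost when peaks within 200 bp of tRNA, snoRNA and snRNA genes were left out, whereas the 6 core genes kept a summit. The hemicentin gene him-4 had 3 intronic summits, the strongest with a score of 743 and at an annotated tRNA gene. All 3 were nearer to the 5' end of F15G9.5 than to one of him-4, and the weakest was 71 bp from it. The papilin gene mig-6 had one 4402 bp upstream with a score of 647, but the 5' end of lbp-4 was nearer to it. The giant matrix protein gene dig-1 had 2, up to a score of 334, and the spondin gene spon-1 had 2, of which the weaker, with a score of 207, was 4 bp upstream. The stronger spon-1 summit was 163 bp from the 5' end of F10E7.5.

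The agrin gene agr-1, the fibulin gene fbl-1 and the peroxidasin gene pxn-2 had no summit. At fbl-1 the replicate lists went against the pooled one: the best regions ranked 2380 in replicate 1 and 3968 in replicate 2, and the pooled list had no region in the window. The gene pxn-2 had no region in any of the ranked lists. Of the 2 matrix protease genes, gon-1 had an intronic summit with a score of 200, and mig-17 had none. Of 5 genes for collagen modification or secretion, the protein disulphide isomerase gene pdi-2 had a summit 133 bp upstream with a score of 344. The prolyl hydroxylase genes dpy-18 and phy-2, the lysyl hydroxylase gene let-268 and the collagen secretion gene tmem-131 had none.

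**Figure D4:**
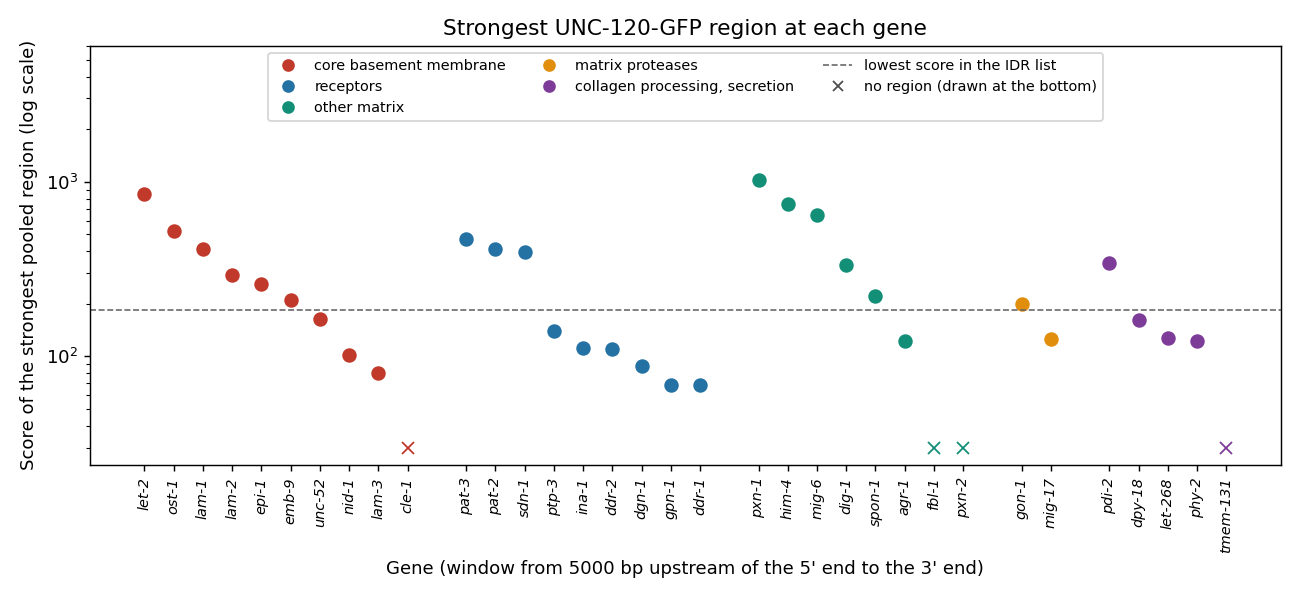
Score of the strongest pooled region in each gene's window (vertical, log scale) for the core genes and 4 classes of other basement membrane genes. The dashed line is the lowest IDR score, 185, crosses mark genes with no pooled region, and the core genes run from 851 at let-2 through 209 at emb-9 and 163 at unc-52 to no region at cle-1.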

How the data were processed

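ChIP-seq of UNC-120-GFP was analysed from region lists in build ce11 for 2 replicates of 1 group. Per the files deposited with the samples, there was a ranked list per replicate, a ranked pooled list and an IDR-thresholded list. Each region carries a score in column 7 that the authors' peak caller gave, on a scale that the labels do not state. Aligner, peak caller and versions: none of them is given in the sources used here. The ce10 lists were not used here, since builds were not mixed.

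Summits (start plus column 10) were set against the WBcel235 genome, with gene models of Ensembl release 115. Ranks count nuclear regions by descending score. A summit took its replicate rank from the nearest summit within 200 bp. Members and lists were chosen with earlier results of these data known, and no test was made. Named were all members, every gene whose 5' end is nearest to a member summit or whose promoter window holds it, and, of each class of other genes, up to 4 with a summit by score and up to 4 without by name. The genes nspd-6, lbp-4, ccdc-47, F15G9.5, F10E7.5, spon-1, ina-1 and ptp-3, and the non-coding RNA genes, were named after their values were seen. Alternatives changed the windows, the threshold, the replicate used and the motif reach. The scripts were tested on simulated summits. Python 3.11.15, numpy 2.4.6, pandas 2.3.3 and matplotlib 3.10.9 were used.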

Additional observations from a re-analysis of the deposited data

How the results depend on the processing

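The count of 6 members with a summit was 6 with a shorter and with a longer upstream reach, with each summit given only to the nearest 5' end, with region overlap, with 1 summit per 400 bp and without peaks near small RNA genes. The share of all protein-coding genes moved while this count stayed at 6. It was 13.7% with the shorter reach, 28.0% with the longer and 10.5% with the nearest 5' end only. With region overlap it was 20.5%, with 1 summit per 400 bp 19.7%, and without peaks near small RNA genes 17.9%. The member count was 4 among the 1473 stronger IDR peaks, where 11.0% of all genes had a summit. It was 7, with unc-52, in the pooled list to 2 times the IDR length, where 31.6% did. Without 1 replicate the member count ranged from 5 to 6, member summits from 11 to 12 and other basement membrane genes from 9 to 10. Members in the promoter window then ranged from 4 to 6. Without 1 replicate, shares of all genes ran from 19.4% to 19.8% in the gene window and from 9.03% to 9.25% in the promoter window. Among the 1473 stronger IDR peaks, which are fewer regions, the 12 member summits became 6. The promoter count there became 3, against 4.86% of all genes. In the pooled list to 2 times the IDR length, which holds more, member summits became 25 and other basement membrane genes with a summit became 18. A promoter window of 500 bp upstream to 100 bp downstream held summits of 4 members and of 6.73% of all genes. Of 36 counts for the gene lists under alternatives, 32 stayed within 1.5 times the reported value, and of 124 values for single genes and sequences, 101 did. The 101 include many reported values of 0 that stayed 0, such as those of lam-3, nid-1 and cle-1 under every alternative. They therefore overstate how steady the values above 0 were. No paired analysis was possible because only 1 group was sampled. The depth is unknown, so what it limits could not be measured.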

Other observations

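The E-box form CATCTG was looked up after the sequences had been seen. Within 100 bp it was present at 5 of 12 member summits (41.7%) and at 9.03% of all summits. Within 50 bp it was present at 4 of 12 and at 4.79% of all, and within 200 bp at 6 of 12 and at 17.8% of all. Because the sequence was chosen from these summits, the shares carry no test.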
